A study of Mus musculus with 4 samples.

Results

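Lyz1-high alveolar type 2-like cells were taken from mouse lung tumours profiled by single-cell RNA sequencing. A barcode was kept when it held at least 2000 UMIs (unique molecular identifiers, each counting 1 captured transcript) and at most 20% of them came from mitochondrial genes. It was called epithelial when Epcam, Cdh1, Krt8, Krt18 and Cldn18 together gave at least 2 UMIs while Ptprc, Cdh5 and Col1a2 gave none. An epithelial cell was a Lyz1-high cell when Lyz1 and Retnla together reached 5 per 10000 UMIs of the cell and no Cre UMI was seen. By this rule 1103 of 15189 epithelial cells were Lyz1-high, out of 27399 cells kept and 29367 barcodes. The comparison population, called the other epithelial cells, is the 14055 epithelial cells below that level. A further 31 cells reached the level but held a Cre UMI and entered neither population.

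All mice carried p53frt, Rosa-FSF-CreERT2 and Hnf4aflox, including those given vehicle. Tumours were started by adenoviral mSPC-FlpO, Flp recombinase under a surfactant protein C promoter. Flp acts on the frt sites of p53 and switches on CreERT2 at Rosa26, and tamoxifen then lets CreERT2 act on floxed Hnf4a. Tamoxifen or vehicle followed 10 weeks after the virus, and macroscopic tumours were collected 2 weeks later. The age and number of animals behind each suspension are not given in the labels, and the vehicle is named there in more than 1 way. Part of every cell suspension was set aside, and magnetic beads removed CD45-positive and CD31-positive cells, that is leukocytes and endothelium, from what was left. There are therefore 4 groups of 1 library each, and the portions before and after depletion come from the same suspensions and do not replicate each other. With 1 library per group no test across samples was possible, and every difference below is given by size, with intervals that cover counting error only.

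Alveolar type 2 cells are cuboidal cells of the alveolar wall that make surfactant, a mixture of lipid and the surfactant proteins, and that can divide and give rise to flat type 1 cells. Surfactant lipid is stored in lamellar bodies and depends on fatty acid synthesis and desaturation within the cell. Mice have a pair of lysozyme genes: Lyz2, known from macrophages and type 2 cells, and Lyz1, best known from Paneth cells of the intestine. Retnla encodes a secreted resistin-like protein induced by type 2 cytokines. Type 2 cells are also the cell of origin targeted by the surfactant protein C promoter, so normal type 2 cells and tumour cells can share much of one programme.

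Values from the 4 libraries always follow one order, the vehicle pair first and then the tamoxifen pair, and within a pair the portion before depletion first. The Lyz1-high cells numbered 114, 605, 43 and 341, with median depths of 18380, 14233, 24650 and 13658 UMIs per cell. The other epithelial cells numbered 756, 5734, 878 and 6687, with median depths of 24481, 19284, 26010 and 17237 UMIs. Levels were summed over the cells of a library and are given as CPM, UMIs per 1000000 UMIs of those cells. Whole libraries held from 92644997 to 144994771 UMIs, and pairs of libraries shared from 10 to 18 barcodes, none of them a Lyz1-high cell in both. In the libraries labelled tamoxifen Hnf4a was not lower in the other epithelial cells, at 58.1, 57.9, 86.7 and 84.9 CPM. That goes against the labelled deletion, but a 3′ tag can lie outside the deleted part and so checks nothing.

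The lysozyme pair shares sequence upstream of its RefSeq starts, which is shown because Lyz1 chose the cells and Lyz2 did not. In GENCODE M21 Lyz1 spans chr10:117287797-117292868 and Lyz2 spans chr10:117277331-117282321, both on the minus strand. For each gene the first 81 of the 130 bases before its RefSeq start are given, 5′ to 3′ on the minus strand, with the positions that differ in capitals (RefSeq, GRCm38.p6, chr10:117292918-117292998 for Lyz1 and chr10:117282322-117282402 for Lyz2).
Lyz1: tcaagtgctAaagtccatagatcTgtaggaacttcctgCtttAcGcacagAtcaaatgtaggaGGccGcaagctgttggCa
Lyz2: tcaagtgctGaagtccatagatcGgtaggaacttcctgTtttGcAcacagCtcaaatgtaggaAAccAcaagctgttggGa
These differ at 10 of 81 positions. The 49 bases that follow, up to the RefSeq starts, differ at none, so that 120 of 130 positions are equal (92.3%). For Lyz2 those 49 bases lie inside the GENCODE span given above, so only the 81 bases shown are upstream of both genes in both annotations. Both open with TCAAGTG, letters known from sites bound by NK2-type homeobox factors such as Nkx2-1. Searched on either strand over each gene's promoter window, and chosen after the sequences were seen, these letters occur in 972 of 27025 RefSeq promoters (3.60%). They occur in 5 of the 96 matched genes (5.21%) that were higher in the Lyz1-high cells by the size rule of the first comparison. Lyz1 and Lyz2, from which the letters were read, are among these 5, so the share tests nothing. The window of Retnla does not hold them. In the transcripts, 3.75% of 90-base windows of Lyz1 also occur in Lyz2. How reads from such windows were counted was not tested.

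The genes of the rule describe the cells and support nothing. Lyz1 stood at 3871, 4246, 6682 and 5186 CPM in the Lyz1-high cells, against 9.34, 17.5, 6.18 and 8.65 CPM in the other epithelial cells. Retnla (chr16:48842551-48844461, plus strand) stood at 5184, 3930, 1461 and 2082 CPM, against 11.3, 10.7, 4.71 and 5.62 CPM. Lyz1 was the more abundant rule gene in 3 of the 4 libraries, and Retnla in the vehicle library before depletion. The summed level per cell ran from 5.03 to 789 per 10000 UMIs, with medians of 49.9, 48.6, 68.7 and 42.3. Just inside the threshold, 204 epithelial cells lay from 5 to 10 per 10000, counted with or without Cre, and just outside it 433 lay from 2 to 5.

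The label's other markers, Chil1, Scd1 and S100g, were higher in the Lyz1-high cells of every library. The label was chosen with earlier results of these libraries known, so these markers also describe the cells and support nothing. Chil1, a secreted chitinase-like protein, stood at 3049, 3231, 2700 and 2676 CPM against 919, 907, 772 and 811 CPM. S100g, a calcium-binding protein, stood at 652, 528, 890 and 972 CPM against 282, 239, 259 and 236 CPM. Neither gene's levels in the 2 populations overlapped. Sftpc, which encodes the surfactant protein that defines type 2 cells, reached 143090, 152950, 140910 and 144630 CPM. The other epithelial cells held 56282, 59239, 62836 and 65725 CPM of Sftpc, itself a high level. The type 2 label is thus met by both populations, and the Lyz1-high cells stood higher on it.

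The first comparison asked what sets the Lyz1-high cells apart from the rest of the epithelium of the same library. They held more transcripts of 8 of 14 surfactant genes, of Lyz2, Scd1 and Lrg1, and fewer of Vim, Hmga2, S100a6, Gkn2 and Hnf4a. A gene was called higher or lower when it reached 10 CPM in either population of each library and its CPM + 1 was apart by 2-fold or more, with 1 sign, in all 4 libraries. Of 8677 genes considered, 120 were higher (1.38%) and 426 were lower (4.91%). Since Lyz1 and Retnla chose the cells, these counts describe them and test nothing. The median gene was itself lower in the Lyz1-high cells, by log2 ratios of -0.36, -0.31, -0.29 and -0.35, beside the larger share of their UMIs taken by Sftpc. Under edgeR's TMM scaling, which brings that median near 0, the counts became 223 higher and 218 lower. All 120 genes first called higher remained so, and 218 of the 426 lower ones remained lower.

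Ranked by their smallest difference over the 4 libraries, the 15 higher genes named here were headed by Lrg1. Lrg1 (chr17:56119678-56122001, minus strand), a secreted leucine-rich glycoprotein, stood at 1339, 1291, 1009 and 1035 CPM against 241, 222, 161 and 153 CPM in the other epithelial cells. The log2 ratios were 2.47, 2.53, 2.64 and 2.75. Lrg1 was also abundant in a reference set of endothelial cells, at 761, 1039, 724 and 981 CPM. Summed endothelial markers in the Lyz1-high cells were no more than 35.4 CPM in any library.

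Itih4, a plasma protease-inhibitor family member, stood at 631, 357, 422 and 315 CPM against 114, 72.2, 57.9 and 49.1 CPM. Chia1, an acidic chitinase secreted in lung and stomach, stood at 162, 178, 129 and 129 CPM against 19.9, 17.3, 32.7 and 24.8 CPM. Slc5a1, a sodium-glucose cotransporter, stood at 46.7, 25.2, 25.6 and 22.5 CPM against 7.59, 4.58, 3.51 and 2.83 CPM. Each of these secreted or transport genes was higher in the Lyz1-high cells in every library. Irx2, a homeobox factor, stood at 99.3, 58.1, 68.3 and 59.4 CPM against 24.4, 14.0, 13.4 and 10.9 CPM. The other genes of this group were Fam184a, Slc6a20a, Prmt8 and Nexmif, together with the lipid and type 2 genes described next.

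**Figure D1:**
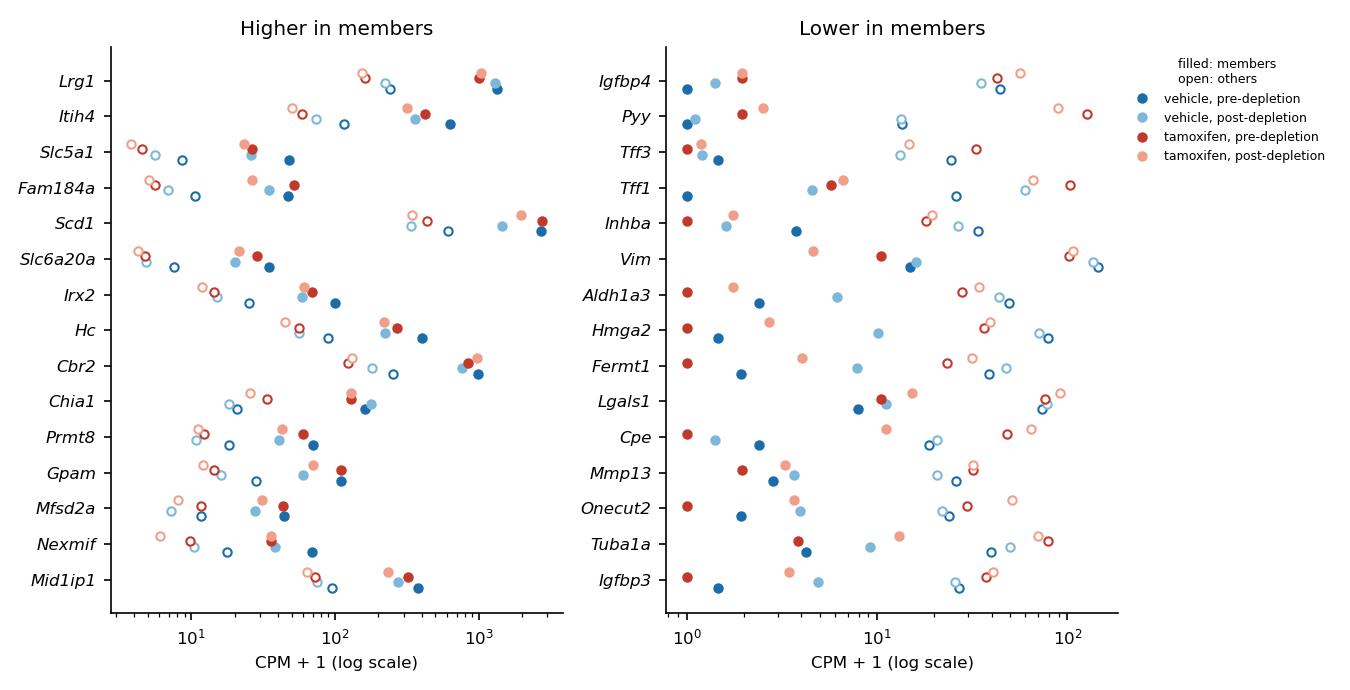
Levels of the 15 higher and 15 lower named genes, as CPM + 1 on a log axis, in Lyz1-high cells (filled points) and other epithelial cells (open points), 1 point per library. In each row every library has its filled point on the same side of its open point, for example Lrg1 at 1009 to 1339 CPM in the Lyz1-high cells against 153 to 241 CPM.

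Surfactant genes were higher as a group. Of 14 surfactant and secretory genes, 8 were higher and none lower, with median log2 ratios of 1.24, 1.16, 1.24 and 1.22 against the all-gene medians given above. Sftpa1, a collectin of surfactant, stood at 17171, 18378, 17714 and 18528 CPM against 6584, 6653, 7141 and 7074 CPM. Lamp3, a lamellar body membrane protein, stood at 1221, 800, 1028 and 881 CPM against 410, 260, 331 and 287 CPM. Slc34a2, the phosphate transporter of type 2 cells, had log2 ratios of 1.54, 1.56, 1.34 and 1.30. The exceptions within the list were as plain. Sftpb, the surfactant protein needed for lamellar bodies, differed little, at 6610, 6544, 7575 and 6818 CPM against 5135, 5207, 5978 and 5483 CPM. Ctsh, a protease that processes surfactant proteins, had log2 ratios of 0.20, 0.14, -0.20 and -0.14.

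Of 7 other type 2 genes, 5 were higher and none lower, with median log2 ratios of 1.83, 1.85, 1.99 and 2.02. Lyz2, the neighbour of Lyz1, stood at 15248, 13281, 14387 and 13334 CPM against 4293, 3283, 2873 and 2478 CPM. Il33, an alarmin cytokine of the IL-1 family, stood at 663, 448, 367 and 333 CPM against 127, 124, 91.4 and 81.4 CPM. Hc, complement component 5, and Cbr2, a lung carbonyl reductase, were the others most apart, and Cbr2 stood at 992, 766, 843 and 969 CPM against 254, 180, 122 and 129 CPM. Egfl6, an epidermal growth factor-like secreted protein, had log2 ratios of only 0.69, 0.46, 0.35 and 0.15.

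Some genes of lipid synthesis were higher and most were not. Of 24 fatty acid and sterol synthesis genes, 21 were considered, 3 were higher and none lower, with median log2 ratios of 0.31, -0.01, 0.32 and 0.29. Scd1 (chr19:44394455-44407879, minus strand), the desaturase that makes monounsaturated fatty acids, is a label marker kept outside that list. It stood at 2698, 1446, 2761 and 1971 CPM against 608, 335, 434 and 344 CPM. The 3 higher list genes were Fasn, fatty acid synthase, Elovl1, an elongase of very long chains, and Gpam, which starts glycerolipid synthesis. Gpam stood at 109, 59.0, 109 and 69.1 CPM against 27.1, 15.1, 13.3 and 11.0 CPM. Mid1ip1, which promotes activity of acetyl-CoA carboxylase, and Mfsd2a, a lysophospholipid transporter, were also among the 15 named genes. Mid1ip1 stood at 379, 271, 320 and 232 CPM against 94.6, 74.3, 71.6 and 63.1 CPM. The sterol genes Srebf2 and Sqle lay within 2-fold in every library, with Srebf2, a regulator of sterol synthesis, at log2 ratios of -0.49, -0.46, -0.68 and -0.08.

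MHC class II genes, which type 2 cells express, stood somewhat higher. H2-Aa was the 1 of 7 that passed the size rule, at 918, 846, 797 and 744 CPM against 427, 357, 366 and 314 CPM. The list's median log2 ratios were 0.79, 0.84, 0.69 and 0.70, and none of the 7 was lower in any library. Cd74, the invariant chain, stood at 3817, 3731, 3476 and 3578 CPM against 2062, 1956, 2159 and 2059 CPM.

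Shares of cells showed the same order at equal depth. Each cell was thinned once to 2000 UMIs, so no cell was left out, and unthinned shares are in parentheses. A Scd1 UMI was seen in 90.4% (99.1%), 75.2% (93.6%), 88.4% (100%) and 81.8% (97.4%) of Lyz1-high cells. In the other epithelial cells the shares for Scd1 were 39.5% (67.9%), 29.3% (61.5%), 27.7% (61.3%) and 26.6% (58.9%). The endothelial reference, a guide to free RNA, gave 0%, 4.35%, 1.03% and 1.85% for Scd1 after thinning, at median depths of 12376, 9171, 9251 and 6769 UMIs before it. For Il33 the thinned shares were 60.5%, 46.3%, 58.1% and 38.7% in the Lyz1-high cells against 18.4%, 18.5%, 13.9% and 12.8% (unthinned 92.1%, 81.2%, 93.0% and 83.6% against 55.8%, 52.9%, 45.6% and 42.3%). Scd1 and Il33 thus differed between the populations as shares of cells as well as in summed counts, and for Scd1, a label marker, this is a description only.

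Lineage regulators of the lung were mostly alike. Of 12, 11 were considered, none was higher and 2 were lower, Hnf4a and Sox9. Nkx2-1, the factor that specifies lung epithelium, stood at 244, 183, 234 and 199 CPM against 258, 205, 258 and 226 CPM. Cebpa, a type 2 cell factor, stood at 187, 150, 160 and 153 CPM against 165, 131, 145 and 123 CPM. Under TMM scaling the median log2 ratios of this list moved from -0.33, -0.43, -0.38 and -0.29 to 0.01, -0.12, -0.17 and 0.05, so no direction is given for it. Sox9, a factor of distal tip progenitors, stood at 3.23, 19.3, 19.0 and 15.8 CPM against 57.9, 51.7, 53.8 and 61.7 CPM.

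Genes lower in the Lyz1-high cells included mesenchymal-type and growth factor genes. Vim, the intermediate filament vimentin, stood at 13.9, 14.95, 9.49 and 3.58 CPM against 143, 135, 101 and 106 CPM. Lgals1, galectin-1, stood at 6.93, 10.2, 9.49 and 14.3 CPM against 72.5, 77.3, 75.3 and 90.5 CPM. Hmga2, a chromatin protein of embryonic and malignant cells, stood at 0.462, 9.16, 0 and 1.70 CPM against 78.4, 70.2, 35.6 and 38.3 CPM. Each of these 3 genes was lower in the Lyz1-high cells of every library, as the choice by ratio requires. Inhba, a subunit of activin, stood at 2.77, 0.610, 0 and 0.755 CPM against 33.0, 25.6, 17.1 and 18.5 CPM. Igfbp4, an insulin-like growth factor binding protein, was the most separated, at 0, 0.407, 0.949 and 0.943 CPM against 43.2, 34.1, 41.9 and 55.6 CPM. The rest of the 15 were Pyy, Tff3, Tff1, Aldh1a3, Fermt1, Cpe, Mmp13, Onecut2, Tuba1a and Igfbp3.

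Of 12 genes of the transitional state between type 2 and type 1 cells, 4 were lower (3 under TMM scaling) and none higher, with median log2 ratios of -1.70, -1.30, -1.44 and -0.9999. S100a6, a calcium-binding protein of stressed and transformed cells, stood at 202, 689, 413 and 597 CPM against 2345, 3046, 1872 and 2080 CPM. Itga2, a collagen-binding integrin subunit, stood at 5.54, 58.9, 19.0 and 36.2 CPM against 219, 234, 173 and 166 CPM. Cldn4, a tight junction protein, and Krt19, a keratin, were the other 2. One gene of this list stood the other way: Nupr1, a stress-response gene, had log2 ratios of 0.46, 0.53, 1.32 and 1.33.

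Of 13 type 1 genes, 11 were considered, 3 were lower (Hopx, Rtkn2 and Akap5) and none higher. Hopx, a homeodomain protein of type 1 cells, stood at 30.0, 29.6, 20.9 and 24.7 CPM against 99.3, 89.7, 125 and 80.6 CPM. Ager, the receptor that marks type 1 cells, was near equal, at 708, 790, 638 and 764 CPM against 760, 887, 856 and 850 CPM. Under TMM scaling the median log2 ratio of this list moved from -0.60, -0.82, -0.64 and -0.58 to -0.29, -0.50, -0.42 and -0.23, and 1 of the 3 calls was left.

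Of 16 gastrointestinal genes 8 were considered, of which Agr2, Gkn2, Tff1 and Tff3 were lower and 1 was higher; under TMM scaling 3 were lower and 1 higher. Gkn2, a gastrokine of the stomach lining, stood at 352, 856, 233 and 942 CPM against 1511, 2419, 2050 and 2089 CPM. Tff1, a trefoil peptide of gastric mucus, stood at 0, 3.56, 4.74 and 5.66 CPM against 24.9, 59.2, 102 and 65.4 CPM. Pdzk1ip1, a small membrane protein of kidney and epithelium, was the higher one, at 91.0, 88.0, 101 and 87.4 CPM against 32.6, 26.0, 24.0 and 22.4 CPM. Of 18 liver-type plasma protein genes 6 were considered, and Apoa1, Alb, Apob and Itih2 were lower, 3 of them under TMM scaling. Itih4 and Hc, named above among the higher genes, are also plasma proteins but were not on that list.

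Other gene groups gave few calls. Of 16 genes downstream of MAPK signalling, 14 were considered and 3 were lower, with median log2 ratios of -1.24, -0.75, -1.02 and -0.72. They were Dusp4 and Dusp5, which are phosphatases of MAPK, and Epha4, an ephrin receptor. Under TMM scaling 1 of the 14 was lower, with medians of -0.91, -0.44, -0.81 and -0.39. Ccnd1, cyclin D1, stood somewhat higher, at 378, 327, 380 and 375 CPM against 234, 238, 258 and 259 CPM. Of 20 p53 target genes, 14 were considered and only Cdkn1a, the cell cycle inhibitor p21, was lower, at 43.9, 71.8, 21.8 and 47.5 CPM against 160, 188, 91.6 and 104 CPM. Under TMM scaling none of the p53 targets was lower and 1 was higher. None of the 8 G2/M genes or the 9 S phase genes considered was called. Their summed G2/M level was 256, 191, 677 and 129 CPM against 258, 185, 272 and 232 CPM. Before depletion 3 cells held 92.8% of the 554 G2/M UMIs with vehicle and 91.3% of the 714 with tamoxifen.

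The second question was whether these cells are tumour cells or non-tumour type 2 cells. Flp recombination was not read in single cells, and CreERT2, a transcript it switches on, was rare. A Cre UMI was seen in 6.38% of epithelial cells below the level (95% exact binomial interval 5.98% to 6.80%, 897 of 14055). The absence of a Cre UMI in the rule therefore says little about a single cell. Bands of the Lyz1 and Retnla level were therefore compared with all cells in them, with or without a Cre UMI. Among all cells at or above the level 2.73% held a Cre UMI (1.86% to 3.86%, 31 of 1134), and among those at 50 per 10000 or more 1.47% did (0.638% to 2.88%, 8 of 543). The endothelial reference held 1 such cell in 289 (0.346%), and the myeloid reference none in 1693.

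In summed counts Cre stood at 3.37 CPM (3.13 to 3.62, 761 UMIs) where no Lyz1 or Retnla UMI was seen. At 50 per 10000 or more it stood at 0.926 CPM (0.400 to 1.82, 8 UMIs). Between these it was 2.92 CPM (1.46 to 5.22, 11 UMIs) from 5 to 10 and 3.31 CPM (1.59 to 6.09, 10 UMIs) from 10 to 20, then 0.826 CPM (0.170 to 2.41, 3 UMIs) from 20 to 50. In the lower member bands counting error thus did not separate the Cre level from that of cells with no Lyz1 or Retnla UMI. The bands from 20 up lay below the level of those cells. The 8 Cre UMIs of the highest band came from the post-depletion libraries (6 with vehicle, 2 with tamoxifen). In the endothelial reference 1 UMI gave 0.327 CPM with an upper bound of 1.82 CPM, so the highest band was not separable from it at this depth. The myeloid reference held no Cre UMI (upper bound 0.201 CPM) but came almost wholly from the portions before depletion.

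Hnf4a and Trp53 were graded along the same bands in the 4 libraries summed. Hnf4a, a liver and gut factor and the gene floxed here, stood at 76.5 CPM where no Lyz1 or Retnla UMI was seen. It stood at 28.6 CPM from 5 to 10, 31.5 CPM from 10 to 20, 12.9 CPM from 20 to 50 and 7.87 CPM at 50 or more. The endothelial reference held 0.980 CPM of Hnf4a. Trp53 stood at 86.9, 56.7, 48.4, 37.7 and 26.3 CPM in the same bands, against 109 CPM in the endothelial reference. In the tamoxifen library before depletion all 8 Hnf4a UMIs at or above the level came from 2 cells at 50 or more, and Trp53 stood at 19.5 CPM at 5 or more and 22.7 CPM at 50 or more. A lower Trp53 level is thus not, by itself, a mark of either allele state here, and its 3′ tag can lie outside the part that Flp removes.

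**Figure D2:**
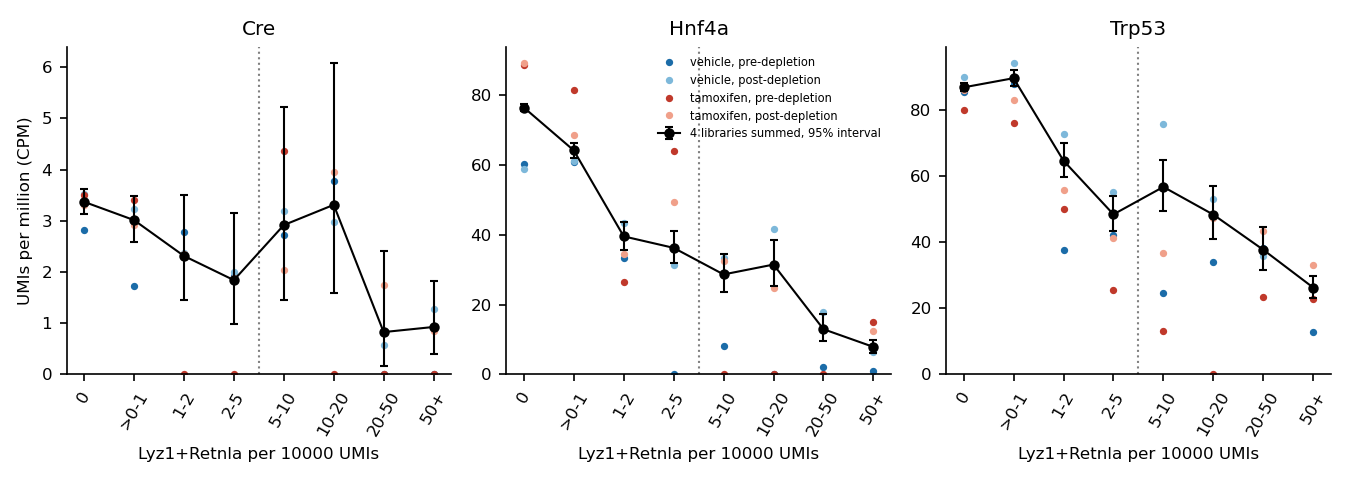
CPM of Cre, Hnf4a and Trp53 (y axes, linear) in epithelial cells grouped by Lyz1 and Retnla per 10000 UMIs (x axis), for each library (coloured points) and the 4 libraries summed (black, with exact 95% Poisson intervals). Cells right of the dotted line meet the member level; summed Cre is 0.826 and 0.926 CPM in the 2 highest bands and 3.37 CPM at 0.

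The gene lists moved by degrees across the bands. The summed level of the surfactant list was 78587 CPM at 0, 154580 CPM just outside the threshold, 156310 CPM just inside it and 219340 CPM at 50 or more. The transitional list stood at 10381, 5017, 5319 and 2633 CPM in the same bands. The gastrointestinal list stood at 2535, 1767, 2623 and 493 CPM. A list of 15 tumour-state genes, drawn from earlier results on these libraries and so not independent of them, stood at 3173, 1969, 2264 and 600.1 CPM. Cells just outside and just inside the threshold were alike on all 4 lists apart from the gastrointestinal one, and the rule cuts a gradient rather than a gap. Most cells in these sums come from the portions after depletion. By library, from Lyz1-high cells at 5 to 50 per 10000 to those at 50 or more, the tumour-state list went from 394 to 576 CPM, 1874 to 715 CPM, 1287 to 214 CPM and 1962 to 490 CPM. The gastrointestinal list went from 195 to 797 CPM, 1720 to 479 CPM, 720 to 221 CPM and 1775 to 425 CPM. Both lists were thus lower at the higher level in 3 libraries and higher in the vehicle library before depletion.

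**Figure D3:**
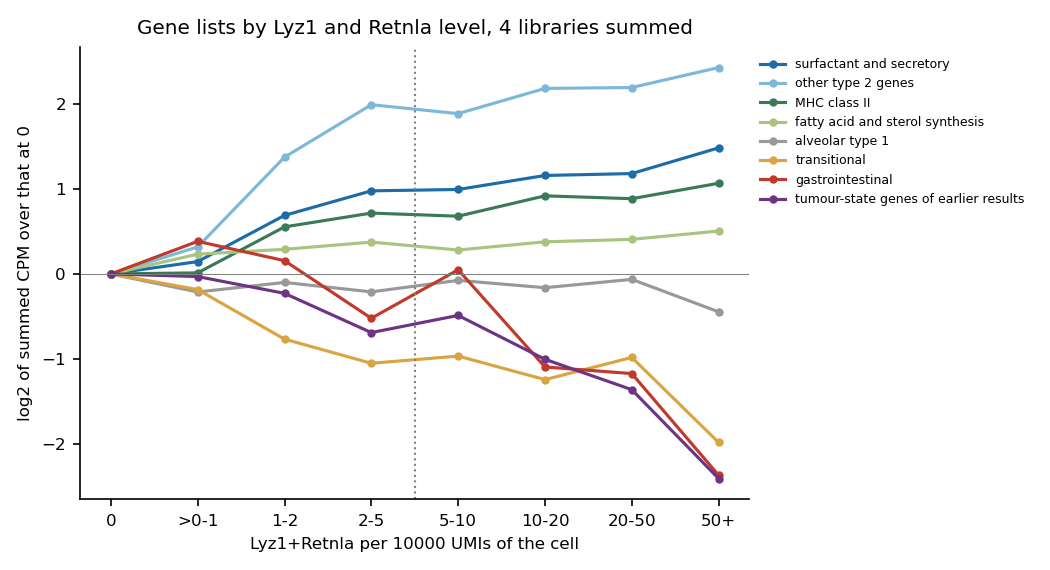
Summed CPM of 8 gene lists in bands of Lyz1 and Retnla per 10000 UMIs (x axis), as the log2 ratio to the band at 0 (y axis), 4 libraries summed, with the member level dotted. Type 2 lists lie above 0 and the gastrointestinal, transitional and tumour-state lists lie below it in the highest band.

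After thinning, 2 or more UMIs of the tumour-state list were seen in 23.7%, 29.6%, 14.0% and 23.2% of Lyz1-high cells (unthinned 58.8%, 63.0%, 60.5% and 52.2%). Among the other epithelial cells the thinned shares were 50.1%, 61.6%, 60.1% and 68.3% (unthinned 70.6%, 84.5%, 79.7% and 88.4%). The endothelial reference gave 1.09%, 0%, 1.03% and 3.70% for this tumour-state list. Meg3, a maternally expressed long non-coding RNA, Unc13c, a synaptic vesicle priming protein, and Pyy, a gut peptide hormone, were the 3 of its genes called lower. Meg3 stood at 378, 870, 432 and 529 CPM against 1630, 1801, 1554 and 1557 CPM. The levels thus differed by band: in the 4 libraries summed, Hnf4a and the tumour-state list were lowest in the band at 50 per 10000 or more, and the bands near the threshold stood closer to the remaining epithelium. No measured transcript assigned a single cell to the tumour or to normal lung.

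Chromosome-wide medians were also compared, each relative to the all-gene median of its library. Chromosome 6 stood at -0.28, -0.23, -0.24 and -0.23 on the log2 scale and chromosome 12 at -0.38, -0.22, -0.35 and -0.28. Chromosome 9 stood at 0.25, 0.21, 0.21 and 0.14, chromosome 11 at 0.25, 0.20, 0.09 and 0.13, and chromosome X at 0.37, 0.30, 0.17 and 0.08. Copy number was not tested, and these medians also carry the gene differences given above.

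The Lyz1-high cells fell into 3 sets by which rule gene was detected. Lyz1 alone was seen in 489 (44.3%), both genes in 277 (25.1%) and Retnla alone in 337 (30.6%). Type 2 genes were high in all 3 sets: Sftpc stood at 153480, 155690 and 135090 CPM in that order. Chil1 stood at 2265, 3412 and 3769 CPM, Il33 at 288, 527 and 568 CPM, and Chia1 at 65.4, 176 and 282 CPM. Each of these 3 genes, Chil1, Il33 and Chia1, was lowest where Lyz1 was seen without Retnla. Hnf4a stood at 20.2, 12.4 and 10.2 CPM, S100a6 at 787, 429 and 444 CPM, and Scd1 at 1885, 1998 and 1561 CPM. The set with Lyz1 alone thus held more of Hnf4a and S100a6 in these sums, while Scd1 varied little. The sums run over the 4 libraries, in which the sets have unlike shares, and levels by library are not reported here. The set with Retnla alone also holds 11 of the 12 cells with club transcripts described below.

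By level, 568 Lyz1-high cells lay from 5 to 50 per 10000 and 535 at 50 or more. From the lower to the higher set Hmga2 went from 9.75 to 0.470 CPM, Vim from 16.9 to 4.70 CPM, S100a6 from 860 to 275 CPM and Hnf4a from 21.6 to 7.64 CPM. Chia1 went the other way, from 76.9 to 254 CPM, as did Lrg1, from 979.5 to 1469 CPM. These are sums over the 4 libraries. In the tamoxifen library before depletion Hnf4a went from 0 to 15.1 CPM and Lrg1 from 1070 to 949 CPM, and in the vehicle library before depletion the 7 other type 2 genes went from 19910 to 17110 CPM.

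A small set carried club cell transcripts. Scgb1a1, the secretoglobin that marks club cells of the airway, stood at 68.4, 4369, 108 and 10918 CPM in the Lyz1-high cells against 14.2, 40.6, 32.2 and 36.9 CPM in the others. Scgb1a1 reached 50 per 10000 UMIs in 12 of the 1103 cells (1.09%), 5 in the vehicle and 7 in the tamoxifen library after depletion, a cutoff chosen after the values were seen. In those 12 cells Scgb1a1 stood at 356930 CPM, Cyp2f2, a club cell cytochrome, at 1255 CPM, and Retnla at 25183 CPM, and 11 of the 12 had no Lyz1 UMI. Their median Sftpc was 11.2 per 10000 UMIs, so most of them do not carry the type 2 label. The set was mixed, and its summed surfactant list was 14730 CPM in the vehicle and 79871 CPM in the tamoxifen library. Sftpc reached 1691, 2251 and 2603 per 10000 UMIs in cells of the tamoxifen library and lay from 6.27 to 187 in the rest of the 12. Without them 121 genes were higher and 421 lower than in the other epithelial cells.

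Summed markers of other lineages were compared in both populations. The summed level of 10 alveolar macrophage markers was 168, 49.3, 78.7 and 45.3 CPM in the Lyz1-high cells against 322, 112, 314 and 120 CPM in the others, and Plet1, which epithelium also expresses, gave 33.7 to 41.5 CPM of it. Marco, a scavenger receptor that defines alveolar macrophages, was at 0, 0, 0.949 and 0 CPM. Lyz2 and Retnla, which macrophages also make, thus stood high where Marco was at or near 0, but Marco is only 1 of the 10 markers. Of the 10, 1, 5, 2 and 5 were at 0 in the Lyz1-high cells. In the vehicle library before depletion the list summed to 295 CPM in the set with Lyz1 alone. It summed to 60.5 CPM in the set with both rule genes and 118 CPM in the set with Retnla alone. The 8 monocyte or macrophage markers summed to 2.54 to 21.7 CPM against 4.69 to 30.1 CPM. The 5 T cell markers summed to 31.4, 0.916, 0 and 4.15 CPM against 9.89, 5.62, 7.14 and 4.66 CPM, and so were above the others in the vehicle library before depletion. The 4 B cell markers summed to 26.3, 28.8, 20.9 and 26.4 CPM against 46.1, 15.7, 147 and 17.2 CPM, and the 4 fibroblast markers to 31.0, 24.0, 23.7 and 19.1 CPM against 16.1, 22.1, 46.8 and 47.3 CPM. Both lists were thus higher in the Lyz1-high cells of some libraries and lower in others. The 4 neutrophil markers summed to 32.3, 14.95, 19.0 and 25.3 CPM against 23.0, 2.16, 21.2 and 2.05 CPM, which after depletion is higher in the Lyz1-high cells. After depletion most of that sum was Retnlg, a resistin-like gene related to Retnla. Retnlg stood at 17.1, 13.3, 6.64 and 24.7 CPM against 4.42, 1.42, 1.16 and 0.829 CPM. In the tamoxifen library before depletion it was the smaller part, 6.64 of 19.0 CPM. Csf3r, the neutrophil growth factor receptor, was at 0 after depletion. Reads shared between Retnla and Retnlg were not tested.

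The third comparison set tamoxifen against vehicle within the Lyz1-high cells. They made up a smaller part of the epithelium in the libraries labelled tamoxifen. With vehicle they were 13.1% (95% exact binomial interval 10.9% to 15.5%, 114 of 872) of epithelial cells before depletion and 9.52% (8.81% to 10.3%, 605 of 6357) after it. With tamoxifen they were 4.66% (3.40% to 6.23%, 43 of 922) and 4.85% (4.36% to 5.37%, 341 of 7038). The ratio of tamoxifen to vehicle was 0.357 before and 0.509 after depletion, so the intervals of the treatments did not overlap in either pair. The share is of sequenced cells, so fewer Lyz1-high cells and more of the other epithelial cells cannot be told apart, and differences between animals cannot be told apart from treatment with 1 library per group.

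By rule gene, cells with Lyz1 alone were 36.8%, 40.2%, 46.5% and 54.0% of the Lyz1-high cells, cells with Retnla alone 37.7%, 33.1%, 16.3% and 25.5%, and cells with both 25.4%, 26.8%, 37.2% and 20.5%. For the sets with 1 rule gene the binomial intervals of the treatments overlapped before depletion (Lyz1 alone 28.0% to 46.4% against 31.2% to 62.3%, Retnla alone 28.8% to 47.3% against 6.81% to 30.7%). After depletion only the interval of Lyz1 alone was clear of the other treatment (36.2% to 44.2% against 48.5% to 59.3%), and the set with both genes moved in opposite directions in the pairs. With Lyz1 as the only gene of the rule, the share was 6.19%, 5.51%, 3.25% and 3.41%, and the ratio of tamoxifen to vehicle was 0.525 and 0.619. The CPM of Retnla in the chosen cells was lower with tamoxifen, by log2 ratios of -1.83 and -0.92 in the pairs before and after depletion. Lyz1 was higher, by 0.79 and 0.29. As genes of the rule these are descriptions only. The Retnla sums rested partly on few cells: in each library 3 cells held 30.1%, 11.0%, 72.5% and 40.1% of its UMIs. They also include the cells with club transcripts described above.

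**Figure D4:**
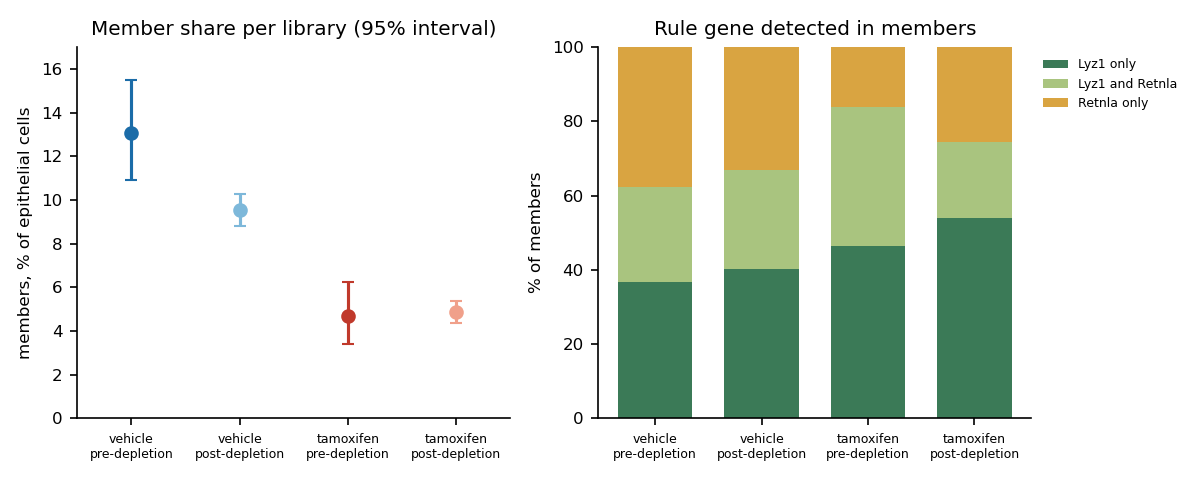
Left, Lyz1-high cells as a percentage of epithelial cells in each library, with exact 95% binomial intervals; right, the percentage of Lyz1-high cells in which Lyz1, Retnla or both were detected. The vehicle libraries stand at 13.1% and 9.52% and the tamoxifen libraries at 4.66% and 4.85%.

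Within the cells, few genes differed between treatments. The size rule was applied to the pairs: in each, 10 CPM on either side, and 2-fold or more in CPM + 1 with the same sign. Of 7992 genes considered, 6 were higher (0.0751%) and 9 lower (0.113%) with tamoxifen. In the other epithelial cells 36 of 9069 were higher (0.397%) and 94 lower (1.04%). The difference between these counts was not tested, and the Lyz1-high cells rest on 43 cells in 1 library. In the pair after depletion alone, 23 genes were higher and 69 lower. The surfactant list had no call, with median log2 ratios of -0.06 and 0.14, and neither had the lipid list, at -0.02 and 0.14. Sftpc itself had log2 ratios of -0.02 and -0.08.

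Smim6, a small integral membrane protein (chr11:115912017-115913920, plus strand), was the gene most apart. It stood at 131, 103, 2.85 and 5.28 CPM, with log2 ratios of -5.10 before and -4.05 after depletion. A Smim6 UMI was seen in 89 of 114 and 401 of 605 cells with vehicle, and in 2 of 43 and 21 of 341 with tamoxifen. The lower level was found in both populations: in the other epithelial cells Smim6 stood at 56.1, 58.7, 4.13 and 4.55 CPM, with log2 ratios of -3.48 and -3.43. Of the 9 lower genes 4 (44.4%) were also lower in the other epithelial cells, where they are 4.26% of the 94 calls. Among them were Smim6, Fbp2, a fructose bisphosphatase, and C1qtnf12, a secreted adipokine. No higher gene was shared, and none was called in opposite directions.

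The remaining lower genes rested on fewer cells. Gzme, a granzyme, stood at 25.4, 47.7, 1.90 and 6.79 CPM, but in the vehicle library before depletion all 55 of its UMIs came from 2 cells. Kcnb2, a voltage-gated potassium channel subunit, stood at 33.3, 19.2, 3.79 and 5.47 CPM, with log2 ratios of -2.84 and -1.64. In the other epithelial cells Kcnb2 stood at 14.0, 14.2, 26.8 and 19.9 CPM, with log2 ratios of 0.89 and 0.46. Fxyd4, a regulator of the sodium pump, stood at 103, 62.5, 21.8 and 27.4 CPM, with log2 ratios of -2.20 and -1.16. With Lyz1 as the only gene of the rule Fxyd4 turned to a mean log2 ratio of 0.34. C1qtnf12 was spread over cells, seen in 23 of 114 and 117 of 605 cells with vehicle and in 2 of 43 and 23 of 341 with tamoxifen. Tmem252 and the heat shock gene Hsph1 were also among the 9.

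Of the higher genes, Cox6a2 was the one seen in most cells. Cox6a2, the muscle form of a cytochrome c oxidase subunit, stood at 45.3, 46.2, 120 and 96.0 CPM, with log2 ratios of 1.39 and 1.04. It was detected in 32 of 114 and 171 of 605 cells with vehicle and in 23 of 43 and 136 of 341 with tamoxifen. These counts were not thinned to equal depth. In the tamoxifen library before depletion 3 cells held 52.0% of its 127 UMIs. In the other epithelial cells Cox6a2 stood at 20.6, 16.2, 24.99 and 25.5 CPM. Fgf2, a fibroblast growth factor, stood at 7.85, 10.5, 49.3 and 25.5 CPM, but 3 cells held 84.6% of its 52 UMIs in the tamoxifen library before depletion. Mxra8, a matrix remodelling protein, stood at 4.62, 4.37, 12.3 and 10.8 CPM. Gbp2, an interferon-induced GTPase outside the rule for named genes, is listed among the 6 with 98.9% of its UMIs in that library in 1 cell. The last 2 of the 6 were the unnamed gene models BC018473 and BC067074.

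Hnf4a, the treatment's target, stood at 2.31, 17.6, 7.59 and 17.4 CPM in the Lyz1-high cells and was not lower with tamoxifen, which its 3′ tag limits as said above. Of the genes that differed with tamoxifen in the other epithelial cells, Pyy stood at 12.5, 12.3, 126 and 88.7 CPM there but at 0, 0.102, 0.949 and 1.51 CPM in the Lyz1-high cells. Cym, a gastric protease, stood at 0.828, 4.10, 42.4 and 34.5 CPM in the other cells and at 0, 0.610, 0 and 0.943 CPM in the Lyz1-high cells. Both genes were thus near 0 in the Lyz1-high cells of every library, with either treatment. They were picked from the 36 genes called higher in the other epithelial cells, and the rest were not counted in this way.

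**Figure D5:**
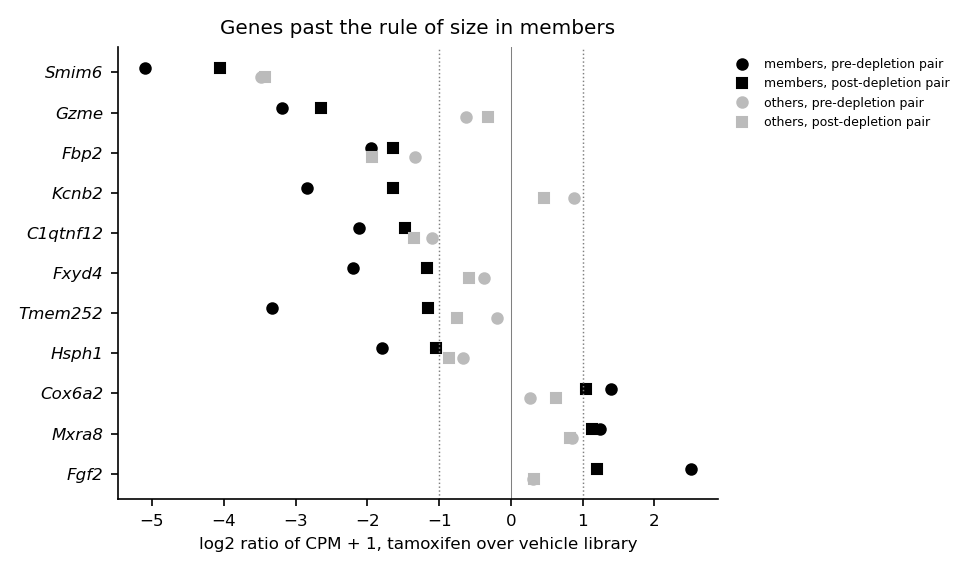
Log2 ratio of CPM + 1, tamoxifen over vehicle (x axis), for 11 genes past the size rule in Lyz1-high cells (black) and the same genes in other epithelial cells (grey), in the pair before depletion (circles) and after it (squares); dotted lines mark 2-fold. Smim6 lies at -5.10 and -4.05 in the Lyz1-high cells and at -3.48 and -3.43 in the others, whereas Kcnb2 lies on opposite sides of 0.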

How the data were processed

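Single-cell RNA was measured in 4 libraries, 1 per group, with version 3 of the 10x Genomics 3′ chemistry, per the labels' protocols. The deposited matrices hold raw UMI counts per gene and barcode, which the authors did not normalize. Cell Ranger 7.0.1 wrote them, per the file headers, while the submitters' processing notes name Cell Ranger 7.2.0 and mm10. Gene positions came from GENCODE M21, which matched 32158 of 32289 features.

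Counts were summed over the cells of a population in each library, scaled to CPM and compared as log2 ratios with a pseudocount of 1 CPM. No p-values were computed, and intervals are exact (95%) and cover counting error only. The size rule was tried on simulated Poisson counts from a pooled profile, without variation between cells or libraries. That trial therefore does not cover calls that rest on a few cells. Doublets were not called; a stricter gate on other-lineage transcripts was an alternative. Named genes were the 15 on each side (treatment: up to 10) with the largest smallest ratio, leaving out the genes of the member rule and mitochondrial, ribosomal, immunoglobulin genes, unnamed gene models and, for higher genes, those with more CPM in myeloid cells. Members, lists and rules were chosen with earlier results of these data known. One further engineered allele in the labels and a few genes are not reported here.

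Scripts ran in Python 3.11.15 with numpy 2.4.6, scipy 1.17.1, pandas 2.3.3 and matplotlib 3.10.9. TMM factors came from edgeR 4.0.16 in R 4.3.3. Alternatives covered the member threshold, Lyz1 alone, thinning, scaling, the CPM minimum, the pseudocount and single libraries.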

Additional observations from a re-analysis of the deposited data

Results flagged for a closer look

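Kcnb2 moved in opposite directions with tamoxifen in the Lyz1-high cells, where it was lower in both pairs, and in the other epithelial cells, where it was higher in both. The mean log2 ratio in the Lyz1-high cells minus that in the others was -2.915, with 1 library per group, and the difference was not tested. In the tamoxifen library before depletion the 4 Kcnb2 UMIs of the Lyz1-high cells came from 1 cell, and in the vehicle library before depletion 3 of the 13 cells with Kcnb2 held 68.1% of its 72 UMIs.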

How the results depend on the processing

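No paired analysis was possible because each group holds 1 library and the labels give no replicate numbers. Libraries are in the order used above. The share of Lyz1-high cells was 16.17%, 13.245%, 6.6161% and 6.8201% at a level of 2 per 10000, 7.7395% and 4.021% after depletion at 10, and 9.7477%, 6.4181%, 3.3623% and 3.1543% at 20. At 50, chosen after seeing the data, it was 6.5367%, 4.7192%, 2.3861% and 2.2165%. In cells thinned to 2000 UMIs it was 14.205%, 7.1584% and 7.3174% in the last 3 libraries, and with Lyz1 alone 6.1927%, 5.5057%, 3.2538% and 3.4101%, with ratios of tamoxifen to vehicle of 0.52543 and 0.61936. The ratio stayed below 1 under each of these. Against the other epithelial cells, TMM scaling gave 223 genes higher and 218 lower, and the median of ratios 225 and 220. A 50 CPM minimum gave 71 and 148, no minimum 682 lower, a pseudocount of 5 CPM 279 lower and the level of 50 per 10000 684 lower. Between treatments (6 higher, 9 lower), the level of 10 gave 11 higher, that of 20 gave 15 higher and 14 lower, and that of 50 gave 16 and 20, of which 2 and 6 were among the first 15. Lyz1 alone gave 17 lower, a pseudocount of 5 CPM 2 higher, no minimum 25 and 38, a 50 CPM minimum 1 and 2, and the pair after depletion alone, added after seeing the data, 23 and 69. Fxyd4 reversed with Lyz1 alone, to a mean log2 ratio of 0.34257; the cause was not tested. Named genes kept their call in 427 of 450 refits against the other epithelial cells and in 140 of 180 between treatments. The treatment comparison rests on 1 library per group and on 43 Lyz1-high cells in the tamoxifen library before depletion: genes at 10 CPM rest on about 10 UMIs there.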
